A study of Rattus norvegicus with 5 samples.

Results

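Crystallins and the small heat shock protein Hspb1 were followed in rat retinal Müller cells by taking every probe set annotated with 1 gene symbol that is Cryaa, Cryab, Crybb1, Crybb2, Crybb3, Cryba1, Crygd, Crygs or Hspb1. This gave 18 of the 8799 probe sets of the array, from 8 of the 9 listed genes (4737 genes are named on the array), and 13 of the 18 were bright enough to be tested. Crygs had no probe set of its own here, and 1 further probe set listed with Hspb1 together with another gene was left out. Total RNA of Müller cells from male Sprague-Dawley rats had been hybridised to 5 Affymetrix RG_U34A arrays. The normal group held 3 arrays, each of cells pooled from the retinas of 12 healthy rats. The diabetic group held 2 arrays of cells from the retinas of 12 rats, pooled 6 months after diabetes was induced with streptozotocin, a toxin of the insulin-producing beta cells; these rats received a little insulin against catabolism. The second diabetic array is labelled a technical replicate, so the mean of both log2 values stood for 1 pool, to be set against 3 normal pools.

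Crystallins are the main soluble proteins of the lens, where they keep the fibre cells transparent. The alpha crystallins Cryaa and Cryab belong, with Hspb1, to the small heat shock proteins, which hold unfolding proteins in solution without using ATP. The beta and gamma crystallins form a separate family of structural proteins. Retinal neurons and glia also make crystallins, and alpha crystallins and Hspb1 are known to rise in stressed or injured retina and to protect cells from death.

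Values below are log2 intensities after quantile normalisation, which gives all 5 arrays the same distribution. A floor of 20 (4.32 on the log2 scale) stands for any dimmer signal. Levels are compared only within a probe set, since probe sets differ in how strongly they bind. In bulk RNA of this kind, fewer cells of a type and less RNA per cell cannot be told apart.

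Facts of the arrays that touch these results are few. The deposited arrays differed in overall brightness, with medians of 27.9 to 91.3. Actin signal at the 3' end relative to the 5' end rises as RNA degrades. This actin ratio was 2.61 on normal array 1, 2.55 on diabetic array 2 and 1.46 to 1.76 on the remaining arrays. A Gapdh ratio of this kind was highest on diabetic array 2, at 1.35. Normal array 1, at 1.16, was below normal array 2, at 1.24. Normal array 3 and diabetic array 1 were at 1.03 and 1.11. Thus normal array 1 was set apart by actin but not by Gapdh. Normal array 3 and diabetic array 2 shared a hybridisation day and chip lot. Normal arrays 1 and 2 each had another combination of day and lot, and no lot was recorded for diabetic array 1. Müller cell markers were bright, with Glul, the glutamine synthetase of these glia, at 11.59 to 13.53 over its 4 probe sets and the vimentin gene Vim at 11.01 to 11.61. The rod arrestin gene Sag was also bright, at 10.15 to 12.42 over its 2 probe sets.

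The promoters of 3 members are shown because Hspb1 had the largest tested difference above normal, Crybb1 the largest below it, and Cryaa the widest gap between the diabetic arrays. Each is the 250 bases before the annotated start from RefSeq on rat assembly GRCr8, on the strand of the gene. In capitals are matches, on either strand, to GAANNTTC or TTCNNGAA, which are pairs of the unit bound by heat shock factors, to TGCTGAC, a core of the site bound by Maf factors of the lens, or to the TATA box TATAAA.
Hspb1, chr12:26432302-26432551, minus strand: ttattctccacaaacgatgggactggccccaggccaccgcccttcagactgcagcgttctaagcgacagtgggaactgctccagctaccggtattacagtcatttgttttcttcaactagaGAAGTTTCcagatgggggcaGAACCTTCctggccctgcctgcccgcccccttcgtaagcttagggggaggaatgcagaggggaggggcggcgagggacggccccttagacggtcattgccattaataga
Crybb1, chr12:50043757-50044006, minus strand: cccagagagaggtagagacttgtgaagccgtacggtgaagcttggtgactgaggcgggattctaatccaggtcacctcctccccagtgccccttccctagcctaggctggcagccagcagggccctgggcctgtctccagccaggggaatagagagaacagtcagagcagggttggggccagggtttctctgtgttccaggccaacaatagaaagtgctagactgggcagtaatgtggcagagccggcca
Cryaa, chr20:9784661-9784910, plus strand: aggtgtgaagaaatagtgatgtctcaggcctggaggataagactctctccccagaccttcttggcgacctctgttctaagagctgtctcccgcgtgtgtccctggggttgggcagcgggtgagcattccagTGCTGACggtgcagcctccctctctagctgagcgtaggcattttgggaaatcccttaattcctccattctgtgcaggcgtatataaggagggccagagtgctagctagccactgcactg

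The Hspb1 promoter held 2 matches to GAANNTTC, whose first bases lie 129 and 109 bases before the start. At least 1 match was found in 7.23% of all 33469 RefSeq promoter windows of this length and at least 2 matches in 0.4%. A run of 3 such units was in 0.663% of windows and in none of the 8 member genes with an entry. TTCNNGAA occurred in 7.48% of windows and, among the members, in Cryba1 alone, 166 bases before the start. The letters TGCTGAC occurred once before Cryaa, at 119 bases, and once before Cryba1, at 64 bases, against 3.53% of all windows. Cryaa has a second annotated start, not shown, from which the same match lies 164 bases away. TATAAA was in 12.9% of windows and, among the members, was found before Cryba1 and Crygs only. None of the motifs searched was in the windows of Crybb1, Crybb2, Crybb3 and Crygd. Only exact letters counted, so variant forms are not marked. By position, the members fall into groups: Crybb2 and Crybb3 are neighbours on chromosome 12, Crybb1 lies next to Cryba4 on the same chromosome, Crygd lies between Cryge and Crygc on chromosome 9, and Cryab lies beside Hspb2, another small heat shock gene. Hspb1 is on chromosome 12 too, between Ywhag and Srrm3.

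Hspb1 was above normal on average on all 4 of its probe sets, by a median log2 difference of 0.63, where the median over all 6118 tested probe sets was -0.010. This median was 0.37 without diabetic array 1, 0.40 without normal array 3 and 1.06 without both arrays of high actin ratio. None of these differences passed limma's test after adjustment over all probe sets. By that rule 0 of 6118 probe sets (0%) were called, with a lowest adjusted p of 0.495, and 98 (1.6%) had an unadjusted p under 0.05. The adjusted p of every tested member was 1 after rounding (lowest 0.999923), and no other tool was run. Only the 3 normal pools gave a spread, which had to stand for the single diabetic pool as well. Limma drew this spread toward that of other probe sets, with 3.54 prior against 2 residual degrees of freedom. Its standard errors (SE) and p-values thus do not measure the spread of the 3 normal pools alone. An exact permutation of 1 pool against 3 cannot go below p = 0.25.

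On probe set M86389cds_s_at, drawn from the Hspb1 coding sequence, the normal arrays stood at 7.44, 7.52 and 7.39 and the diabetic arrays at 8.61 and 8.03. The groups did not overlap, with diabetic arrays higher, and the normal arrays were close together at 7.45 ± 0.063 (SD, n = 3). The log2 difference was 0.87 (SE 0.30), or 1.83 times the normal signal (limma, unadjusted p = 0.031, adjusted p = 1). In deposited, unscaled intensity the normal arrays read 106.6, 87.9 and 280.8 and the diabetic arrays 420.0 and 297.9, also without overlap.

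On rc_AA998683_g_at the normal arrays stood at 8.33, 8.33 and 7.74 and the diabetic arrays at 9.12 and 9.28. The groups were apart here too, with normal array 3 lowest. The log2 difference was 1.07 (SE 0.35), a ratio of 2.1 (limma, unadjusted p = 0.0255, adjusted p = 1). Deposited intensities were 180.1, 154.6 and 360.9 in normal and 591.6 and 691.5 in diabetic cells, so the groups were apart before and after normalisation.

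The remaining 2 Hspb1 probe sets did not separate the groups after normalisation. On rc_AA998683_at, from the same sequence tag as the previous probe set, the normal arrays stood at 9.61, 9.09 and 8.12 and the diabetic arrays at 9.59 and 9.08. Normal array 1 was the highest of the 5 and normal array 3 the lowest, and the difference was 0.39 (SE 0.58). On rc_AI176658_s_at the normal arrays were at 9.54, 9.09 and 8.25 and the diabetic arrays at 9.34 and 9.11, with a difference of 0.27 (SE 0.51). Here both diabetic arrays lay between normal arrays 1 and 2. In deposited intensity the groups were apart on both, with normal arrays up to 480.1 and diabetic arrays from 611.9 on the former, and up to 521.9 and from 628.8 on the latter. Unscaled, 520 of all 6118 tested probe sets had this order. The normal arrays spanned 1.48 and 1.29 on these probe sets, against 0.13 and 0.59 on the probe sets that separated. The difference turned to -0.015 and -0.091 without normal array 3, so that its direction on both rested on this array.

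**Figure D1:**
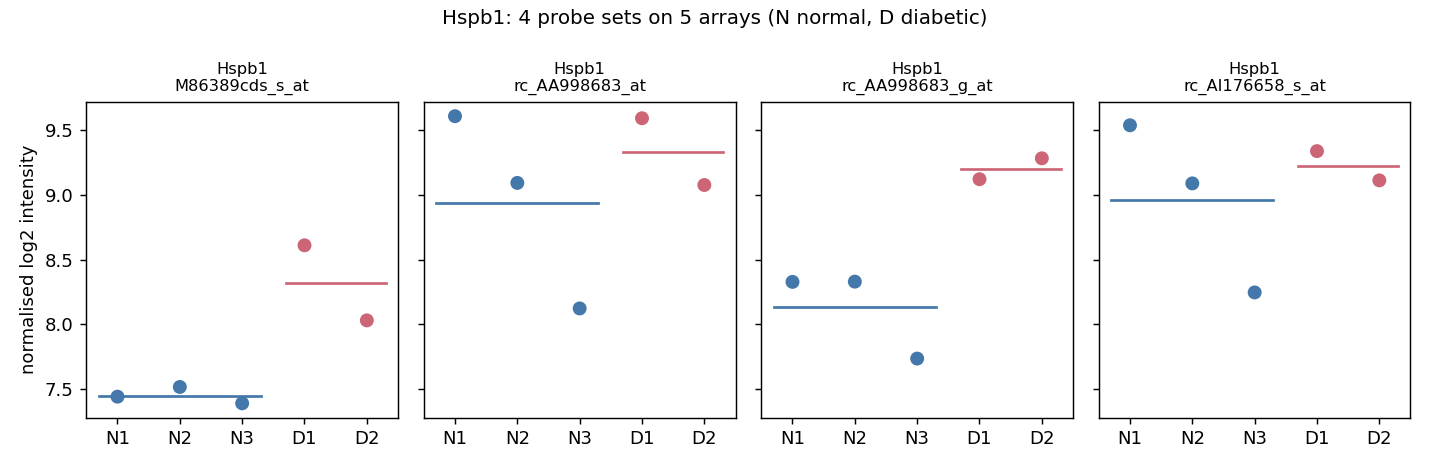
Normalised log2 intensity (vertical axis) of the 4 Hspb1 probe sets on normal arrays N1 to N3 (blue) and diabetic arrays D1 and D2 (red), with lines at the group means. The diabetic arrays lie above all normal arrays on M86389cds_s_at and rc_AA998683_g_at and among them on rc_AA998683_at and rc_AI176658_s_at.

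On 2 of 4 Hspb1 probe sets the diabetic arrays were both higher than any normal array, where 9.53% of all tested probe sets had this order. The same 2 had an unadjusted p under 0.05 above normal, a side on which 1.19% of all tested probe sets fell. These probe sets report 1 gene on the same 5 arrays and are not independent of each other. Within the shared day and lot, diabetic array 2 lay above normal array 3 on all 4. The gap was 0.64 on M86389cds_s_at, 1.55 on rc_AA998683_g_at, 0.95 on rc_AA998683_at and 0.86 on rc_AI176658_s_at. Between these arrays the median over all tested probe sets was 0.009. This sets 1 array against 1, and normal array 3 was the lowest normal array on all 4. Diabetic array 2 lay below normal array 1 on rc_AA998683_at and rc_AI176658_s_at. Without the 2 arrays of high actin ratio the differences were 0.70 to 1.20. The first of these probe sets was the more sensitive to diabetic array 1, with a difference of 0.58 without it. It was 1.17 without diabetic array 2.

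Markers of some other cell types were above normal beside Hspb1 and those of others were not, and none passed limma's adjusted threshold. All 9 tested photoreceptor genes of 21 listed lay above normal, with a median of 0.73, where 2986 of all 6118 tested probe sets lay above. Both diabetic arrays were above all normal arrays on 5 of the 9, against 9.53% of all tested probe sets. The summed normalised intensity of the photoreceptor genes was 4576 to 10747 on normal and 13445 to 14239 on diabetic arrays. The lowest sum was on normal array 3, which was also the lowest array for all 4 Hspb1 probe sets. Markers of microglia and leukocytes lay above normal for 6 of 7 tested genes of 13 listed, and 4 of the 7 had both diabetic arrays above all normal arrays. Their sums were 1387 to 1622 on normal and 1865 to 2082 on diabetic arrays. No gene measured on either list was at the floor on all arrays. Pigment epithelium markers had sums of 70.3 to 149.7 on normal and 221.3 to 259.7 on diabetic arrays, from 2 measured genes of 10 listed, with Rpe65, a defining visual cycle enzyme, at the floor throughout. These sums thus moved with 1 gene alone, Ttr, whose difference was 1.35 (SE 0.61). Endothelial and pericyte markers lay below normal for all 5 tested genes of 12 listed, with a median of -0.25 and overlapping sums. Markers of inner retinal neurons lay above normal for 4 and below for 9 of 13 tested genes, with a median of -0.15. Between the diabetic arrays the photoreceptor and microglial sums were higher on array 2, and 3 of the 4 Hspb1 probe sets were higher on array 1. Diabetic array 2 is labelled a technical replicate, so differences between these arrays cannot be read as differences in cell makeup. The part of any of these cells in the Hspb1 values was not tested. Müller cell markers had summed intensities of 34191 to 44682 in normal and 40516 to 41525 in diabetic cells, with 3 of 10 tested genes above and 7 below normal.

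Alpha crystallins were slightly below normal on all 3 probe sets, by a median of -0.19, with none past limma's threshold. Cryab, the widely expressed alpha crystallin of glia and muscle, was steady. On M55534mRNA_s_at the normal arrays stood at 10.59, 10.39 and 10.54 and the diabetic arrays at 10.37 and 10.35. Both diabetic arrays were below all normal arrays, but by as little as 0.015 from normal array 2, and the difference was -0.15 (SE 0.23, adjusted p = 1). On X60351cds_s_at normal arrays were at 10.23, 9.90 and 10.40 and diabetic arrays at 9.94 and 10.04, overlapping, with a difference of -0.19 (SE 0.29). In deposited intensity normal array 3 was far above the rest, at 2708.1 and 2495.1 on these 2 probe sets, and the diabetic arrays, at 1075.0 to 1401.3, lay above normal arrays 1 and 2. Unscaled, the differences of Cryab were therefore 0.29 and 0.30, while the median of all probe sets moved by 0.47. Relative to that shift Cryab stayed at -0.18 and -0.17. With the arrays scaled to a common median they were -0.23 and -0.21, and with each array left out in turn they ran from -0.32 to -0.070.

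Cryaa, the alpha crystallin best known from the lens, differed more between the repeated diabetic arrays than between the groups. Its probe set U47921_s_at was at 8.06, 7.38 and 7.96 on the normal arrays and at 8.16 and 6.84 on the diabetic arrays. Diabetic array 1 was thus the highest of the 5 and diabetic array 2 the lowest, a gap of 1.31, against a range of 0.68 over the normal arrays. The group difference was -0.30 (SE 0.39, adjusted p = 1). It was 0.36 without diabetic array 2 and -0.95 without diabetic array 1, so its direction depended on which of the diabetic arrays was kept. Of the arrays with a high actin ratio, diabetic array 2 stood at 6.84 and normal array 1 at 8.06, and the part of RNA quality in this value was not tested.

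Beta crystallins were measured by 9 probe sets, of which 5 were tested, with 4 below and 1 above normal and a median of -0.22. The largest difference was that of Crybb1, a basic beta crystallin that marks lens fibre cells. On X05900_at the normal arrays stood at 4.73, 5.81 and 5.90, and the diabetic arrays at 4.33 and 4.32. One diabetic array was at the floor and the other just above it, and all normal arrays were higher. The brightness filter took the mean of the group means. X05900_at passed it only through its normal arrays, so this order is not read as a result. The difference was -1.15 (SE 0.64, unadjusted p = 0.128, adjusted p = 1), or 0.45 times normal. In deposited intensity the diabetic arrays, at 20.5 and 17.9, did not stand apart from normal array 1 at 20.2, while normal arrays 2 and 3 read 26.3 and 92.5. With a floor of 50 the difference was -0.14, and with a floor of 10 it was -1.46. Without normal array 3 it was -0.76, and without normal array 1 it was -1.60. The other Crybb1 probe set, X06377cds_at, was at the floor on all 5 arrays, so it neither adds to nor takes from this value.

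Crybb2, the most abundant beta crystallin of the lens, had 3 tested probe sets, all below normal on average. On X16072_at the normal arrays were at 6.65, 5.90 and 6.01 and the diabetic arrays at 5.98 and 5.95, a difference of -0.22 (SE 0.52). Normal array 1 alone was high, and without it the difference was 0.011. On X83671cds_i_at the normal arrays were at 8.50, 7.69 and 6.88 and the diabetic arrays at 8.12 and 6.97, a difference of -0.14 (SE 0.64). Both diabetic arrays lay within the range of the normal arrays there. On X83671cds_r_at, from the same sequence, the normal arrays were at 5.19, 5.38 and 5.06 and the diabetic arrays at 4.32 and 5.05, a difference of -0.52 (SE 0.47). Diabetic array 1 was at the floor and diabetic array 2 only just below normal array 3. The difference was -0.16 without diabetic array 1, -0.79 without diabetic array 2 and -0.0078 within the shared day and lot. With a floor of 50 it was 0. The diabetic arrays thus ran in opposite order on these 2 probe sets of 1 sequence, with array 2 lying -1.15 from array 1 on the former and 0.73 from it on the latter.

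Crybb3, a further basic beta crystallin, differed by 0.010 (SE 0.46) on M15901mRNA_s_at. Its normal arrays were at 6.79, 6.63 and 6.15 and its diabetic arrays at 6.91 and 6.15, so the lowest arrays of both groups, normal array 3 and diabetic array 2, were at the same level. These are the arrays of the shared day. Cryba1, which encodes the beta A3 and A1 crystallins and is known in the retina from astrocytes and pigment epithelium, was too dim to test on all 3 probe sets. On X15143cds_at it was at the floor on every array, and on AF013248_at only normal array 1, at 4.64, was above it. On X15143cds_g_at normal arrays 1 and 2 were at 5.74 and 4.61 and the other 3 arrays at the floor. The groups overlapped, and the floored difference of -0.57, with no test, was -0.18 without normal array 1.

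Gamma crystallins gave a single tested probe set. Crygd, a lens fibre crystallin, was at 4.61 on normal array 1 and at the floor on normal arrays 2 and 3 on X57169_i_at, with the diabetic arrays at 4.97 and 5.32. Both diabetic arrays were above all normal arrays, all close to the floor, and the difference was 0.73 (SE 0.46, unadjusted p = 0.171, adjusted p = 1). X57169_i_at passed the brightness filter only through its diabetic arrays, so this order is not read as a result. The other Crygd probe set, X57169_f_at, ran the other way. There the normal arrays were at 5.76, 4.63 and 4.34 and the diabetic arrays at 4.48 and 4.32, a difference of -0.51 with no test. Gamma crystallin genes are close copies of each other, and a further 2 probe sets are each listed with both Cryge and Crygf, so the assignment of such signal to Crygd is uncertain.

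**Figure D2:**
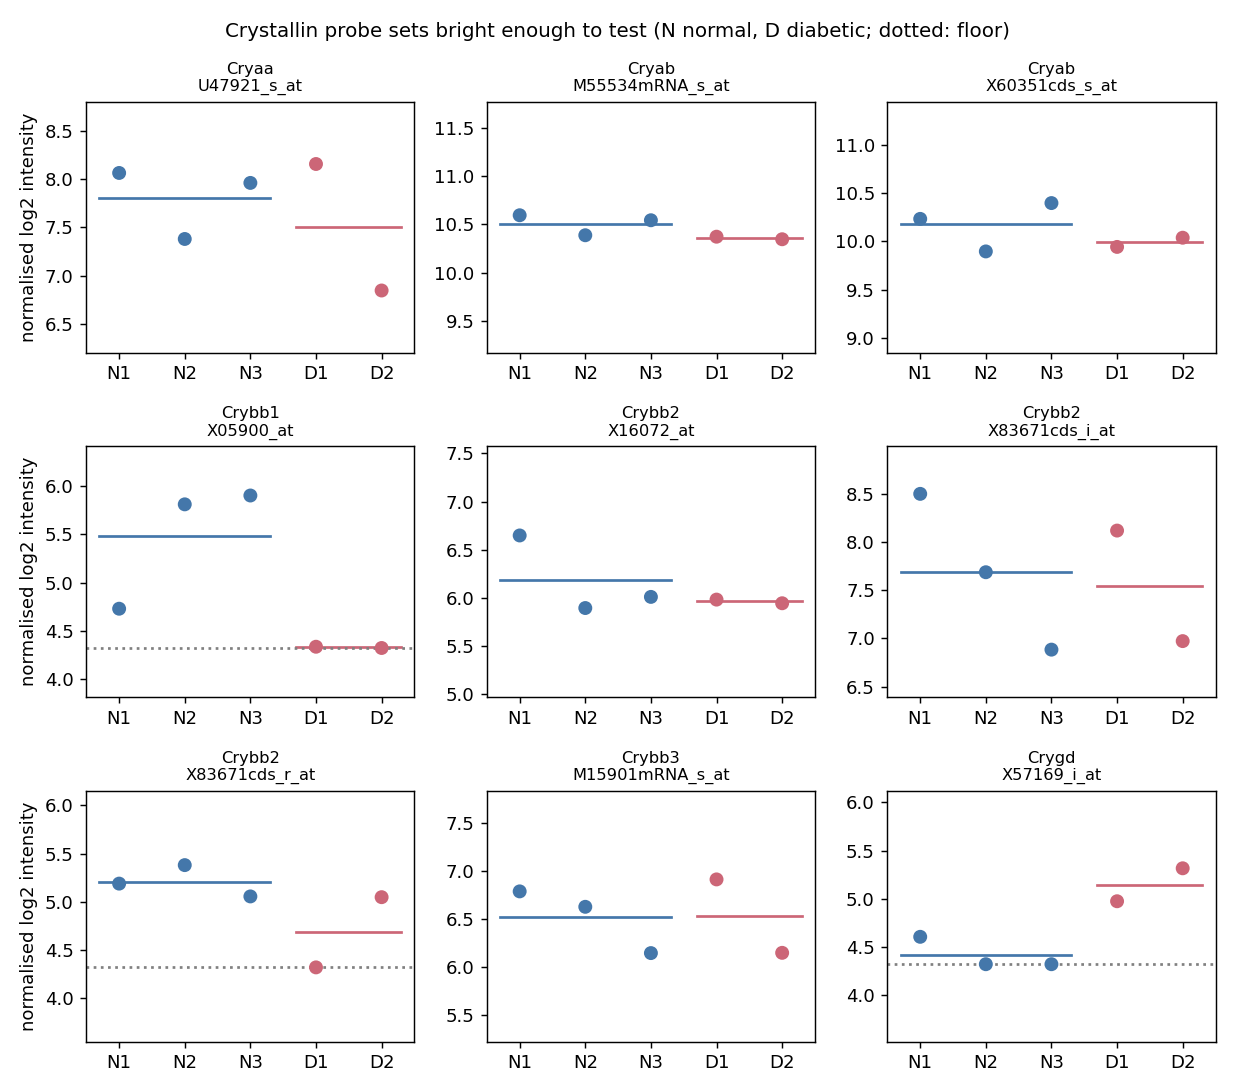
Normalised log2 intensity (vertical axes, each spanning the same 2.6 log2 units) of the 9 tested crystallin probe sets on normal arrays N1 to N3 (blue) and diabetic arrays D1 and D2 (red), with lines at the group means and a dotted line at the floor of 4.32. The diabetic arrays of Cryaa U47921_s_at are 1.31 apart, and those of Crybb1 X05900_at lie at 4.33 and 4.32.

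Over the 9 tested crystallin probe sets, 7 lay below and 2 above normal, with a median of -0.19. Of all tested probe sets, 3132 lay below and 2986 above. Both diabetic arrays were below all normal arrays on 3 of the 9, those of Cryab, Crybb1 and Crybb2 named above, where 7.01% of all tested probe sets had this order, and above them on 1 of 9, where the share was 9.53%. In 2 of those 3, Crybb1 and Crybb2, a diabetic array was at the floor, and in the third the gap was 0.015. The brightness filter let in Crybb1 X05900_at only through its normal arrays and Crygd X57169_i_at only through its diabetic arrays. Crygd X57169_f_at, at -0.51, was left out. The counts of order and direction can therefore not be read as a result about these genes. In deposited, unscaled values 13 of all tested probe sets had the order below normal. The diabetic arrays were more than 1 apart on the log2 scale on 2 of the 13 tested members, Cryaa and Crybb2 X83671cds_i_at, against 10.1% of all tested probe sets. Diabetic array 2 was below diabetic array 1 on 9 of 13, against 46.9% of all. Normal arrays spanned more than 1 on 4 of 13, against 30.6% of all. The Hspb1 and crystallin medians differed in sign, but the members share arrays and this contrast was not tested.

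**Figure D3:**
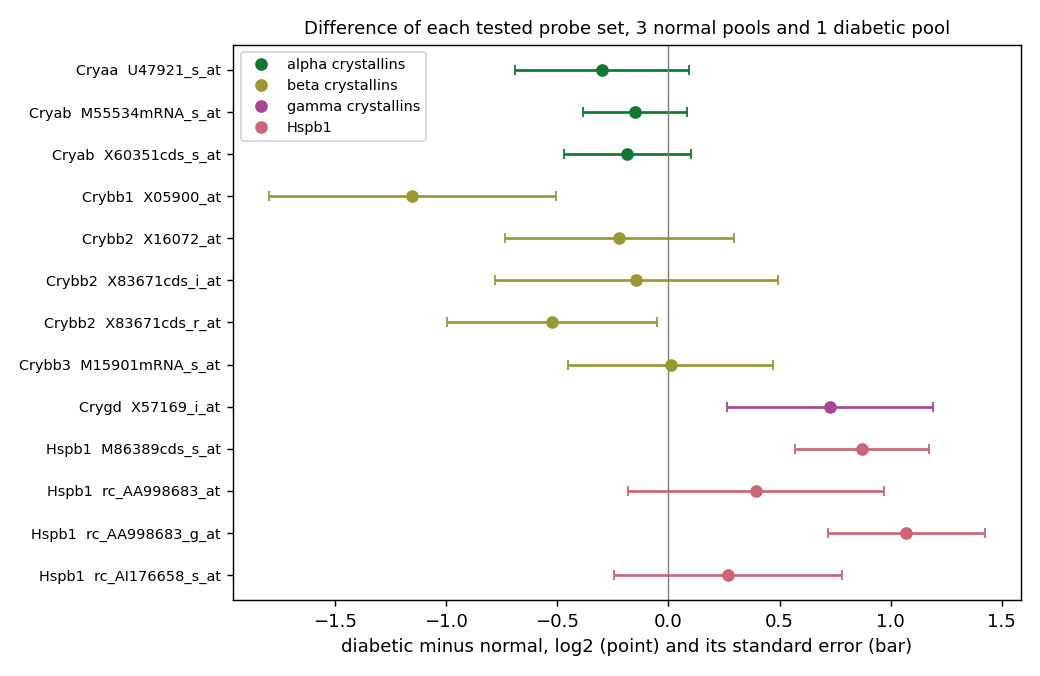
Diabetic minus normal log2 difference (horizontal axis) of the 13 tested member probe sets, coloured by class, with bars of 1 standard error from limma (3 normal pools and 1 diabetic pool). The 4 Hspb1 probe sets and that of Crygd lie to the right of 0, Crybb3 lies at 0.010, and the other crystallin probe sets lie to the left.

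The other crystallin and small heat shock genes of the array lay on both sides of normal. Of 16 listed genes 4 were measured and 3 tested, with 2 above and 1 below normal, a median of 0.009 and none past the adjusted threshold or at an unadjusted p under 0.05 by limma. Cryba4, the acidic partner gene next to Crybb1, was at 5.41, 5.98 and 5.14 on normal and 5.33 and 5.28 on diabetic arrays, a difference of -0.20 (SE 0.55). Hspb6, a small heat shock protein of muscle, differed by 0.038 (SE 0.37) on its brightest probe set, with normal arrays at 6.87, 6.91 and 6.86 and diabetic arrays at 7.33 and 6.52. Its other tested probe set differed by 0.25 (SE 0.41), with diabetic arrays at 6.66 and 6.79 just above normal arrays at 6.38 to 6.61. Hspb2, the neighbour of Cryab, was at 7.41, 7.89 and 7.44 in normal and 7.90 and 7.28 in diabetic cells, a difference of 0.009 (SE 0.36). On this and on the brightest Hspb6 probe set, but not on the other, diabetic array 1 was the highest of the 5 arrays and diabetic array 2 the lowest, the order also seen for Cryaa. A second Hspb2 probe set was at the floor on all 5 arrays.

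Genes of the heat shock response and other chaperones lay on both sides of normal. Of 22 listed, 16 were tested, 5 above and 11 below normal, with a median of -0.13; by limma 0 passed and 0 had an unadjusted p under 0.05. Hspa1a, an inducible chaperone of the Hsp70 family, was at 11.20, 11.18 and 11.52 on normal and 11.50 and 10.51 on diabetic arrays, a difference of -0.29 (SE 0.26). Hspa2, a relative of it best known from the testis, differed by 0.79 (SE 0.44) with overlapping arrays. For Hmox1, which encodes the stress-induced haem oxygenase, the difference was 0.36 (SE 0.32), with diabetic arrays at 7.77 and 7.93 above normal arrays at 7.35 to 7.65. Of 13 transcription factors known to act on crystallin genes, 6 were tested, 4 above and 2 below normal with a median of 0.42, and none passed or had an unadjusted p under 0.05. Pax6, a regulator of eye development that Müller cells also express, was at 7.61, 7.35 and 8.39 in normal and 8.50 and 8.24 in diabetic cells, a difference of 0.58 (SE 0.47). Pitx3, a homeobox factor of lens and dopamine neurons, differed by 1.06 (SE 0.74) and Creb1 by -0.67 (SE 0.48).

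Lens markers were examined because crystallin signal can come from lens fragments carried over in dissection. Of 11 lens genes outside the crystallins 6 were measured and 5 tested, 3 above and 2 below normal with a median of 0.072. Their summed intensity was 523 to 556 on normal and 544 to 600 on diabetic arrays. Bfsp1, a beaded filament protein of lens fibres, was at the floor on all 5 arrays, and so was 1 of the 2 probe sets of Mip, the major water channel of the fibre membrane. The other Mip probe set was at 7.56, 7.16 and 7.03 in normal and 6.97 and 7.22 in diabetic cells, a difference of -0.15 (SE 0.39). Lim2, a fibre membrane protein, differed by 0.46 (SE 0.61), and Foxe3, a factor of the lens epithelium, by 0.54 (SE 0.50), with diabetic array 1 at 7.20 and the other arrays at 5.11 to 5.93. The part of lens cells in the crystallin values was not tested.

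The arrays on which members were high or low are also shown by the genes most like them, chosen by Pearson's r over the 5 arrays among 1509 named probe sets with an SD of at least 0.5. For the mean of the 7 tested probe sets of Cryaa and the beta and gamma crystallins, which was highest on normal array 1 (0.27 above its mean) and lowest on diabetic array 2 (-0.29), these were Eef2 (r = 0.99), Myo9a (0.98), Pnck (0.98), Mlnr (0.96) and Skic2 (0.96). Eef2, translation elongation factor 2, was at 11.06 on normal array 1 and 9.22 on diabetic array 2 on that probe set. For Cryab M55534mRNA_s_at they were Bglap, Ahsg, Igf1, Ces1dl1 and Gja6 (r = 0.96 to 0.99), high on normal arrays 1 and 3. All of these but Ces1dl1 were at the floor on some arrays, and Cryab itself ran only from 10.35 to 10.59. For the brightest Hspb1 probe set, rc_AA998683_at, they were Gpr176, Trpc1, Nf1, Tagln and Gas7 (r = 0.98 to 0.99), all lowest on normal array 3. With 5 arrays 24, 14 and 44 candidates exceeded an r of 0.9, and the points share arrays, RNA quality and normalisation, so r only describes which arrays were high.

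**Figure D4:**
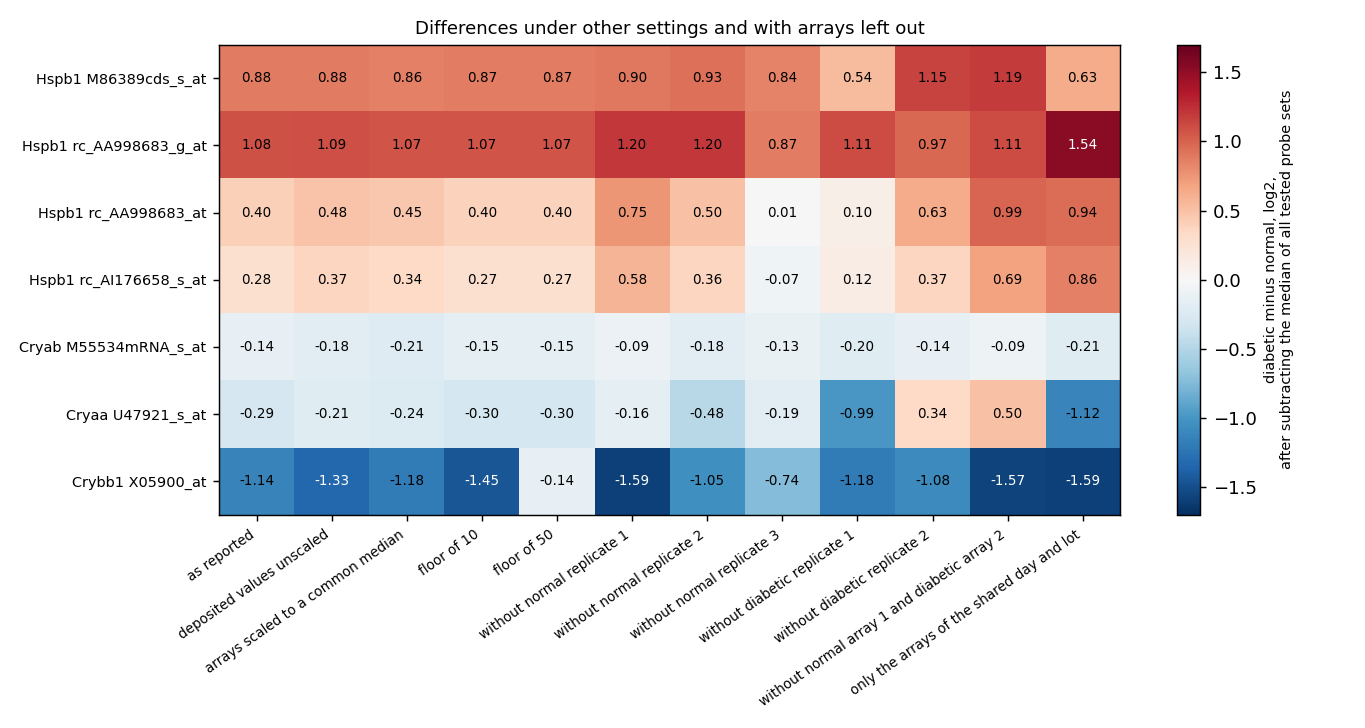
Log2 difference of 7 member probe sets (rows) as reported and under other settings (columns), after subtracting the median of all tested probe sets; red is above and blue below that median. The upper 2 Hspb1 probe sets stay between 0.54 and 1.54 in all columns shown, whereas Cryaa changes sign where diabetic array 2 is left out.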

How the data were processed

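The authors deposited 1 linear intensity for each probe set on each array, with no negative value. The method of summarising and scaling probe signals is not given in the sources used here. Deposited experiment records were read for chip type, lot and day alone. The members and lists were chosen with earlier results of these data known. Values were quantile-normalised, floored at 20 (above the 20th percentile) and converted to log2. After 59 control probe sets, the dimmest 30% by mean of the group means were dropped, leaving 6118 of 8740. The averaged diabetic pool was compared with 3 normal pools in limma 3.58.1 (R 4.3.3; lmFit, eBayes with trend, 2 residual degrees of freedom), two-sided, with p-values adjusted by Benjamini-Hochberg across the 6118 and a threshold of 0.05. The step was tested on simulated data. Symbols came from the platform annotation, matched to RefSeq through Entrez IDs; probe sets with several symbols were not named. Named genes were all members, at most 3 genes of each pathway list and of the lens list by moderated statistic, each gene by its brightest tested probe set, and the 5 genes most like each profile. Promoters came from RefSeq's GRCr8 table, with Cryab not among them. Alternatives changed scaling, floor, filter, prior, unit of replication and arrays. Figures used matplotlib 3.10.9.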

Additional observations from a re-analysis of the deposited data

How the results depend on the processing

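No paired analysis was possible because the labels pair no normal pool with the diabetic pool and the diabetic arrays are 1 pool. The count of called probe sets was 0 as reported, 147 with a floor of 50, 170 when dim probe sets were kept and 13 with the 5 arrays as separate samples, with 0 members among them. All 3 normal arrays held the same value for 138 of the 147 and 162 of the 170, and all were above normal. It was 0 without any single array. Probe sets with every diabetic array above all normal arrays numbered 583 as reported and 847 to 1425 with an array left out, and those below 429 and 752 to 1339. Fewer arrays make such order easier. Leaving out both arrays of high actin ratio gave 2107 and 2117, and unscaled 13 were below.

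Unscaled, where all probe sets moved by a median of 0.47, class medians were 0.29 for alpha, 0.32 for beta and 1.16 for Hspb1, and the differences of Cryaa (0.26), both Cryab probe sets (0.29 and 0.30) and Crybb2 X16072_at (0.32) and X83671cds_i_at (0.45) turned positive. Relative to that shift those 5 stayed below 0. Without both arrays of high actin ratio the beta median was 0.031, and Cryaa (0.51), X16072_at (0.031) and X83671cds_i_at (0.87) were positive; between the arrays of the shared day X83671cds_i_at was at 0.088. The gamma median, resting on 1 probe set as reported, was 0.0096 with a floor of 10, -0.019 with a floor of 50, 0.11 without the filter and 0.99 within the shared day; the second Crygd probe set entered it where it passed the filter. With single arrays left out the Hspb1 median ran from 0.37 to 0.82, the beta median from -0.51 to 0.011 and the gamma median from -0.054 to 0.91. The same range was -0.95 to 0.36 for Cryaa, -0.37 to 0.011 for X16072_at, -0.72 to 0.44 for X83671cds_i_at and -0.37 to 0.40 for Crybb3. It was -0.015 to 0.73 for Hspb1 rc_AA998683_at and -0.091 to 0.57 for rc_AI176658_s_at. Causes were not tested beyond these values. The other 2 Hspb1 probe sets kept their direction in all 15 alternatives each, and neither passed limma's adjusted threshold in any where it was tested. Changes of floor, filter, prior and unit of replication could not move their differences, which stayed at 0.87 and 1.07. Only the changes of scaling and arrays could have turned their direction. Crybb1 and Crygd signals near the floor bound their differences.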
